A study of Mus musculus with 18 samples.

Results

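The 10 genes described here encode enzymes of glycolysis: Hk2, Pfkp, Aldoa, Tpi1, Gapdh, Pgk1, Pgam1, Eno1, Pkm and Ldha. They were chosen by their symbols in the gene-name field of the deposited table and are 10 of its 47643 genes, with 75 of its 115125 transcript entries. RNA was purified from 5G6GR mouse embryonic stem (ES) cells, which were grown without feeder cells on gelatin, with fetal calf serum, leukemia inhibitory factor, puromycin and blasticidin. It was diluted to 10 pg for RT-RamDA, a method that amplifies cDNA while the RNA is being reverse transcribed, and the study varied the primer of that reaction. There were 3 libraries for each of 5 primer sets, named here N6 (random hexamers), NSR ("not-so-random" primers, made to avoid ribosomal RNA), dT (oligo dT, which primes on poly(A) tails), N6dT (N6 and dT together) and NSRdT (NSR and dT together). A further 3 libraries, named bulk, began from 200 ng of RNA with ribosomal RNA removed by the KAPA RNA HyperPrep Kit with RiboErase, and their labels give N6 as the primer. The RT-RamDA libraries had 17 cycles of PCR and the bulk libraries 7, so bulk differs from every primer set in input, kit, rRNA removal and PCR at once, and these cannot be told apart. By the labels all 6 groups share the cell line, its medium and both drugs, and differ in how the libraries were made. Nothing in the labels tells whether replicate libraries began from different cultures. The p-values thus measure the spread between libraries, which may be technical, though bulk replicate 2 also differed in cell type markers, given below.

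Glycolysis splits glucose into pyruvate in the cytosol. Hexokinase and phosphofructokinase commit the sugar to the pathway, aldolase and triosephosphate isomerase cut it into triose phosphates, and the later enzymes recover ATP and NADH from these, while lactate dehydrogenase turns pyruvate into lactate. Pluripotent cells are known for a high glycolytic flux, and most of these mRNAs are short, abundant and polyadenylated. Several of the genes, Gapdh above all, have many processed pseudogenes, which are copies of the spliced mRNA elsewhere in the genome.

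In mm10, the minus strand holds Hk2 at chr6:82725025-82774454, Pfkp at chr13:6579768-6648777, Aldoa at chr7:126795234-126800751, Tpi1 at chr6:124810586-124814296 and Gapdh at chr6:125161715-125166467. The plus strand holds Pgk1 at chrX:106187100-106203699, Pgam1 at chr19:41911923-41918660, Eno1 at chr4:150236721-150248879, Pkm at chr9:59656368-59679375 and Ldha at chr7:46841475-46855627. Counts are of whole genes, exons of all their entries together. The table gives from 1 entry (Pgam1) to 14 entries (Aldoa) per gene, and the most abundant entry is 1420 bases long for Gapdh, the shortest, and 5513 for Hk2, the longest.

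Library totals ran from 5333546 to 10234690 estimated counts. The share of each total given to rRNA-annotated and mitochondrial genes ranged from 54.1% to 54.7% in N6 libraries, from 44.9% to 45.9% in NSR, from 50.3% to 51.8% in N6dT, from 38.3% to 39.3% in NSRdT, from 10.2% to 10.7% in dT and from 12.3% to 13.1% in bulk. The 8 ES cell markers examined were all detected and summed to between 1667 and 3355 CPM over the 18 libraries. CPM is a count scaled to sequencing depth, and the marker values are on the scale of the trimmed mean of M values set out below. Of 6 fibroblast markers 1 was at 0 in every library and the sum stayed at or below 6.08 CPM, and both erythroid markers were at 0. Bulk replicate 2 stood apart: its 8 primitive endoderm markers summed to 3783 CPM, against 473 and 432 in bulk replicates 1 and 3 and 178 to 642 in the RT-RamDA libraries. Most of that sum was Lama1, at 1790 CPM, and Col4a1, at 1556. Gata6, at 127 CPM, lay within the range of the RT-RamDA libraries, 32.2 to 147. Each of the other markers was higher in bulk replicate 2 than in every other library. The part of this in the results was not tested. Results against bulk are therefore given with and without that library.

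The 10 genes took a larger share of the deposited counts with dT and in bulk than with any set holding random primers. Together they made up 0.902% ± 0.034 of the library total with dT and 0.873% ± 0.037 in bulk, but 0.303% ± 0.013 with N6, 0.371% ± 0.016 with NSR, 0.333% ± 0.0066 with N6dT and 0.457% ± 0.017 with NSRdT (SD, n = 3). The share of rRNA and mitochondrial genes moved the opposite way over the groups. Of the counts outside those genes, the 10 made up 0.966% to 1.04% with dT and 0.947% to 1.04% in bulk. They made up 0.641% to 0.704% with N6, 0.652% to 0.696% with NSR, 0.670% to 0.697% with N6dT and 0.727% to 0.772% with NSRdT. The dT and bulk libraries thus stayed above all others, by a smaller factor. What the remaining gap comes from was not tested. Marker values above and levels below are CPM scaled by the trimmed mean of M values (TMM), in 1 scaling of all 18 libraries. TMM leaves out genes with extreme levels or ratios when it sets the scale. On that scale the 10 summed to 6409 ± 182 CPM with dT and 5224 ± 286 in bulk, and to 4637 ± 251 with N6, 4435 ± 90.3 with NSR, 4472 ± 129 with N6dT and 4440.0 ± 114 with NSRdT. The lowest dT library, at 6222, was above the highest of all others, 5458 in bulk, and the RT-RamDA libraries with random primers ran from 4316 to 4918. The RNA was pooled from many cells, so a level does not tell how many cells held a transcript or how much each held. By the labels the groups differ in how the libraries were made, and differences between them are not read as differences between cells.

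Divided by transcript length, the levels of the 10 genes kept Gapdh first and Hk2 last in all 6 groups. Gapdh (glyceraldehyde-3-phosphate dehydrogenase, the NADH-forming step) was between 801 ± 64.2 CPM per kb with N6dT and 1193 ± 95.8 in bulk. Hk2, the inducible hexokinase, was between 29.7 ± 1.79 with dT and 62.3 ± 7.51 in bulk. In the RT-RamDA groups Eno1 (enolase) came second, at 351 to 479.9 CPM per kb, then Pkm (pyruvate kinase, the last ATP-forming step) at 319.7 to 464 and Aldoa (aldolase A) at 259.8 to 462. In bulk the order was Pkm at 421 ± 34.1, Aldoa at 346 ± 10.4 and Eno1 at 325 ± 10.5. These levels are of each gene alone. Near-identical copies, described below, took 44.1% of the counts of Eno1 and its copies in bulk and 27.4% to 31.8% in the RT-RamDA groups. The place of Eno1 in the order may thus depend on read assignment, which was not tested. Ldha (lactate dehydrogenase A) was between 199 and 306, Pgk1 (phosphoglycerate kinase, the first ATP-forming step) between 124 and 253, and Pgam1 (phosphoglycerate mutase) between 104 and 327. Pfkp, the platelet-type phosphofructokinase, was between 80.5 and 132, and Tpi1 (triosephosphate isomerase) between 65.3 and 113. Neighbours whose libraries overlapped were Aldoa with Ldha, Pgk1 with Pfkp and Pfkp with Pgam1 for N6, and Pfkp with Pgk1 for NSR. With dT they were Eno1 with Pkm, Pkm with Aldoa and Pgam1 with Ldha. With N6dT they were Ldha with Pgk1 and Tpi1 with Hk2, with NSRdT Eno1 with Pkm, Ldha with Pgam1, Pgam1 with Pgk1 and Pfkp with Tpi1, and in bulk Pgk1 with Pgam1 and Pfkp with Tpi1.

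**Figure D1:**
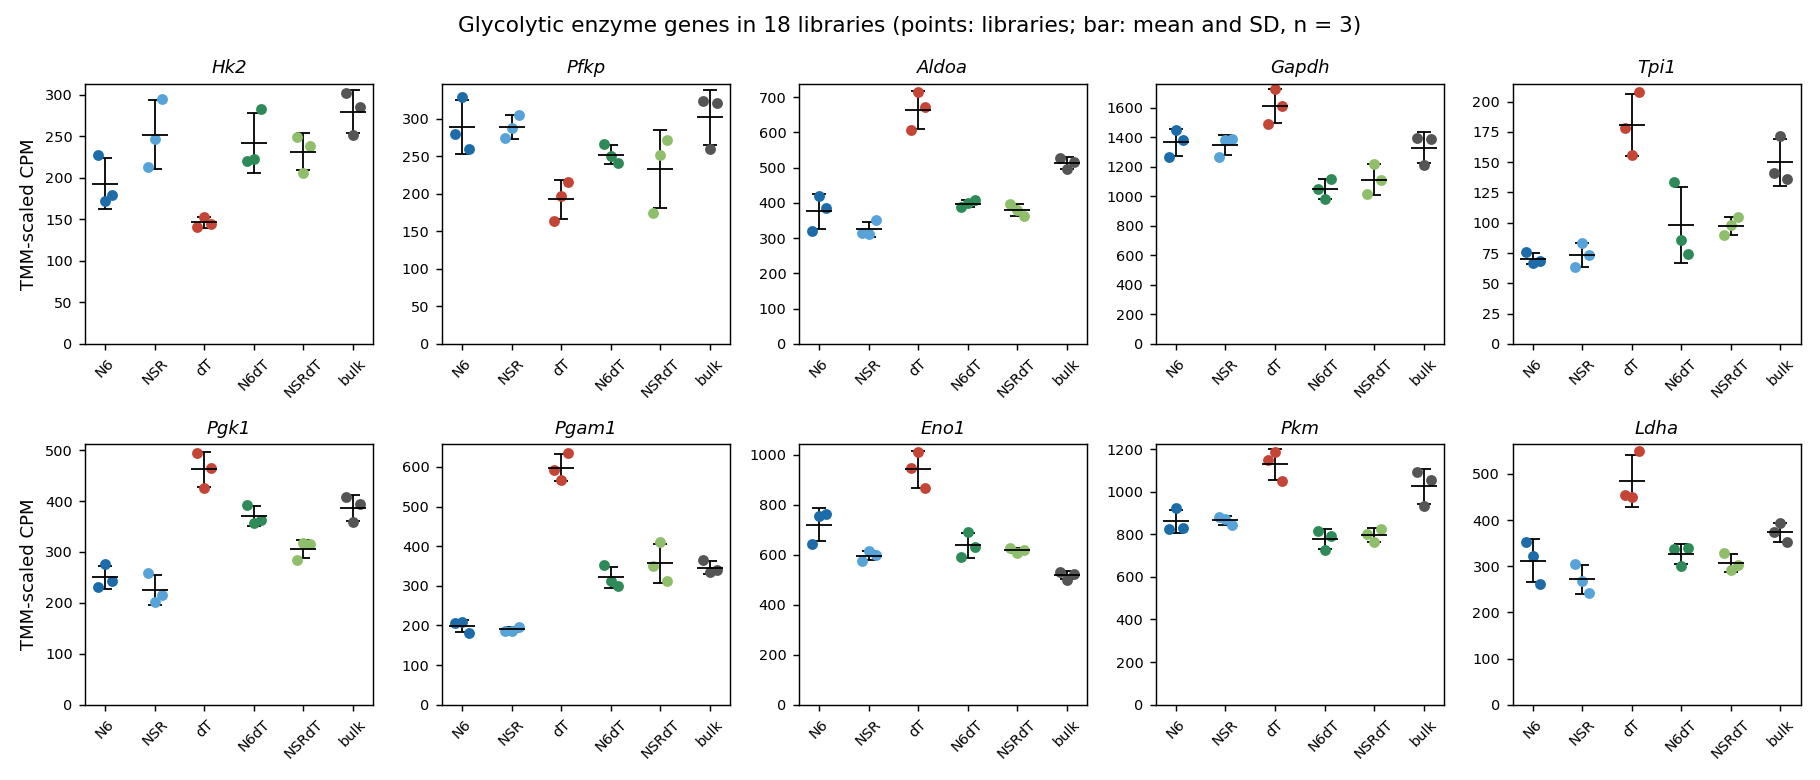
TMM-scaled CPM (vertical axis, from 0) of the 10 glycolytic genes in the 18 libraries, 1 panel per gene. Points are libraries, coloured by group, and bars are the mean and SD of 3. For 8 genes the dT points lie above all N6 and NSR points, and for Hk2 and Pfkp they lie below them. How many of all genes separate in this way was not counted.

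Near-identical copies bear most on 4 of the 10 genes, because a read from bases shared by a gene and its copy can be given to either, and estimated counts can split such reads. Of the genes sharing at least 50% of their 31-base words with a member, 41 were copies of Gapdh, 2 of Eno1, 2 of Pgk1, 1 of Pgam1, 1 of Pkm and 1 of Tpi1. Pgam1 showed this most. Pgam1-ps2, a processed pseudogene at chr7:27469771-27470535 on the minus strand (mm10), is 765 bases long, and all of it is identical to the coding sequence of Pgam1 (chr19:41911923-41918660, plus strand), bases 126 to 890 of the GENCODE vM21 transcript. It ends 885 bases before the 3′ end of that 1775-base transcript, so its match holds none of the sequence next to the poly(A) tail. The first and last 60 bases of the shared stretch are printed to show that it runs from start codon to stop codon, which are in capitals, as GENCODE vM21 gives them.
Pgam1 and Pgam1-ps2, first 60 bases: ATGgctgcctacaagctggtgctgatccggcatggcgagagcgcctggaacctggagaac
Pgam1 and Pgam1-ps2, last 60 bases: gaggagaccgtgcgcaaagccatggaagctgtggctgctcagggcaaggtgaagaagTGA

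The share of the summed counts of Pgam1 and its copies that the copies received was 30.4% ± 3.8 with N6 and 33.5% ± 2.0 with NSR, but 0.122% ± 0.075 with dT and 0.0072% ± 0.012 in bulk (SD, n = 3). It came to 5.73% ± 1.2 with N6dT and 4.35% ± 3.7 with NSRdT. Pgam1-ps2 itself stood at 91.0, 107 and 65.4 CPM in the N6 libraries and 103, 88.7 and 91.8 in the NSR libraries. In all 3 bulk libraries it was at 0, and with dT it did not pass 0.226 CPM. The 6 RT-RamDA libraries made with N6 or NSR alone were above all others, the bulk libraries included, whose labels also give N6.

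For Pgk1 the copies received 11.8% ± 2.8 with N6, 23.4% ± 4.3 with NSR, 0.458% ± 0.73 with NSRdT and 3.58% ± 5.0 in bulk. With N6dT their share was 0, and with dT it was at most 4.38e-06%. The N6 and NSR counts went to Gm5537, a pseudogene identical to bases 152 to 1403 of Pgk1, and the bulk counts to Pgk1-rs7, which matches bases 153 to 1407, with 36.5 CPM in bulk replicate 2 against 6.07 and 0.0536 in bulk replicates 1 and 3. Gapdh and Eno1 shared counts with copies in every group. The share was 15.6% to 20.4% over the RT-RamDA groups and 24.6% ± 1.9 in bulk for Gapdh, and 27.4% to 31.8% and 44.1% ± 1.1 for Eno1.

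Different Gapdh copies took these counts with different protocols. Gm12671 and Gm10359, both identical to the whole Gapdh coding sequence, had equal values in every library, 66.3 to 208 CPM each with RT-RamDA and 0 in bulk. Gm7336, which shares 97.2% of its 31-base words with Gapdh, was at 393, 411 and 389 CPM in bulk and at most 3.00 elsewhere. Eno1b, a protein-coding near copy of Eno1, stood at 407 ± 9.12 CPM in bulk, 282 ± 44.4 with N6 and 116 ± 5.86 with NSR. Bulk was not alone in high values of Eno1b. Before scaling, its mean was 5974 estimated counts with dT, against 6811 in bulk, 1413 with N6 and 779 with NSR. Every comparison below was therefore also made with each gene summed with its copies.

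**Figure D2:**
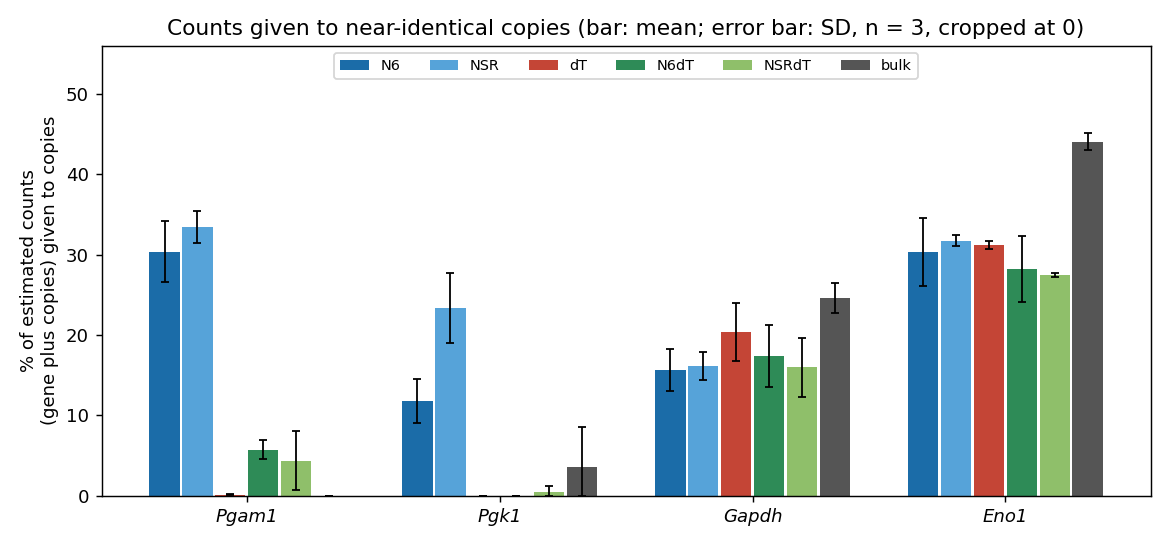
Share of the estimated counts of a gene and its copies that was given to the copies (vertical axis, percent), for 4 genes and 6 groups. Bars are means and error bars the SD of 3 libraries. Pgam1 copies took 30.4% with N6 and 33.5% with NSR but under 6% in every other group, and Eno1 copies took 44.1% in bulk.

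The first comparison asked how priming along the whole RNA differs from priming at the poly(A) tail. Against dT, random primers (the mean of N6 and NSR) gave lower levels for 8 of the 10 genes and higher levels for Hk2 and Pfkp, the kinases of the early steps. For Pfkp this is the level of all its entries together, many of them not coding, as given below. The largest difference was that of Pgam1, 3.07-fold lower for the gene alone and 2.09-fold lower with its copies, followed by Tpi1 at 2.51-fold, Pgk1 at 1.94-fold (1.6-fold with copies) and Aldoa at 1.89-fold. Ldha was 1.66-fold, Eno1 1.43-fold, Pkm 1.30-fold and Gapdh 1.18-fold lower, and Hk2 and Pfkp were 1.51-fold higher each. In edgeR's quasi-likelihood test with Benjamini-Hochberg adjustment all 10 were called at an adjusted p under 0.05. Over all 15682 genes tested 17.1% were called, 9.54% higher and 7.54% lower, and by library totals alone 5.22% higher and 27.6% lower, with 8 members lower and none higher. The median log2 difference of the 10 was -0.62, and that of 12529 protein-coding genes was -0.04.

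In the early steps, Hk2 stood at 228, 172 and 179 CPM with N6 and 213, 246 and 295 with NSR, against 141, 153 and 145 with dT. Its log2 difference was 0.60 (SE 0.15, adjusted p = 0.0107 by edgeR). Pfkp stood at 279, 329 and 259.8 CPM with N6, 274, 288 and 305 with NSR and 164, 198 and 216 with dT (log2 difference 0.59, SE 0.15, adjusted p = 0.0104 by edgeR). These Pfkp levels include entries annotated as retaining an intron. Its coding entries held 27.6% ± 4.3 of the counts with N6 and 29.9% ± 15 with NSR, but 64.4% ± 10 with dT. The higher level is thus not shown for the coding entries, which were not tested alone. For both genes every dT library lay below every library with random primers. How many of all genes separate in this way was not counted, here or in the comparisons below. Without dT replicate 1 neither was called, with adjusted p = 0.061 for Hk2 and 0.0879 for Pfkp, and over all alternatives their adjusted p ran from 0.00037 to 0.0898 and from 0.000647 to 0.0879. Scaled to library totals alone both turned lower (-0.33 and -0.34). Under that scaling the median over all genes went from 0.12 to -0.80. Relative to that median they stood at 0.47 and 0.46, against 0.47 for each by TMM. A change of scaling moves all genes by nearly the same amount, so these relative values had to be close and add no support.

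Aldoa, which cleaves fructose bisphosphate, stood at 321, 419.6 and 386 CPM with N6, 314, 312 and 351 with NSR and 607, 713 and 672 with dT. Its log2 difference was -0.92 (SE 0.10, adjusted p = 3.89e-06 by edgeR). Tpi1, which interconverts the triose phosphates, stood at 75.6, 66.8 and 68.7 CPM with N6, 63.1, 83.1 and 73.1 with NSR and 178, 156 and 208 with dT (-1.33, SE 0.18, adjusted p = 5.91e-05 by edgeR). For both, all dT libraries were higher than all libraries with random primers.

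Among the later enzymes, Gapdh had the smallest difference. It stood at 1268, 1448 and 1384 CPM with N6, 1267, 1382 and 1393 with NSR and 1493, 1726 and 1615 with dT (log2 difference -0.24, SE 0.08, adjusted p = 0.0407 by edgeR). The groups did not overlap, with 1448 CPM as the highest value with random primers and 1493 as the lowest with dT. The call ended with DESeq2's size factors (adjusted p = 0.116), with DESeq2 (0.174), and without N6 replicate 1 or 3, any NSR replicate, or dT replicate 2 or 3 (0.0509 to 0.106). Over all alternatives the adjusted p ran from 4.93e-09 to 0.174. Summed with its copies by name or shared words Gapdh was lower by -0.32 (SE 0.06, adjusted p = 0.0013 by edgeR).

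Pgk1 stood at 232, 276 and 243 CPM with N6, 258, 202 and 216 with NSR and 495, 426 and 465 with dT (-0.96, SE 0.10, adjusted p = 5.92e-06 by edgeR). Pgam1 stood at 207, 208 and 182 CPM with N6, 186, 187 and 196 with NSR and 593, 567 and 634 with dT (-1.62, SE 0.10, adjusted p = 8.2e-09 by edgeR). In both genes the dT libraries were far above the rest. With copies the log2 differences shrank to -0.68 (SE 0.10) and -1.06 (SE 0.10), both still called, with adjusted p = 0.000105 and 1.39e-06.

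Eno1, which makes phosphoenolpyruvate, had a log2 difference of -0.52 (SE 0.08, adjusted p = 0.000317), the same within its error when summed with its copies (-0.52, SE 0.07). Pkm had -0.38 (SE 0.07, adjusted p = 0.00168) and Ldha -0.73 (SE 0.12, adjusted p = 0.000375), all by edgeR. In these 3 genes, too, every dT library was higher than every N6 and NSR library.

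The size of these differences can be set beside that of genes of like length. The 6 members whose main transcript is 1000 to 2000 bases long were all lower, and so was the median of 2619 protein-coding genes of that length (-0.65, quartiles -1.18 and -0.01). Of these 6, Tpi1 and Pgam1 lay below the lower quartile, and Pgam1 with its copies (-1.06) did not. Eno1 and Pkm lay within the quartiles of the 2000 to 4000 base class (median -0.10, quartiles -0.62 and 0.62). Hk2, with 5513 bases, was close to the median of the 4000 to 8000 base class, 0.55 (quartiles -0.03 and 1.24). Pfkp has no 1 length: by its most abundant entry, of 4663 bases, it falls in that class too, but with dT the 2679-base Pfkp-005 led, and by its weighted mean length of 3332 bases it falls in the 2000 to 4000 base class, just inside the upper quartile. Over the 10 genes Spearman's rho of the length of the most abundant entry and the log2 difference was 0.44, and over 12529 protein-coding genes it was 0.43. These genes share their libraries and are not independent replicates.

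**Figure D3:**
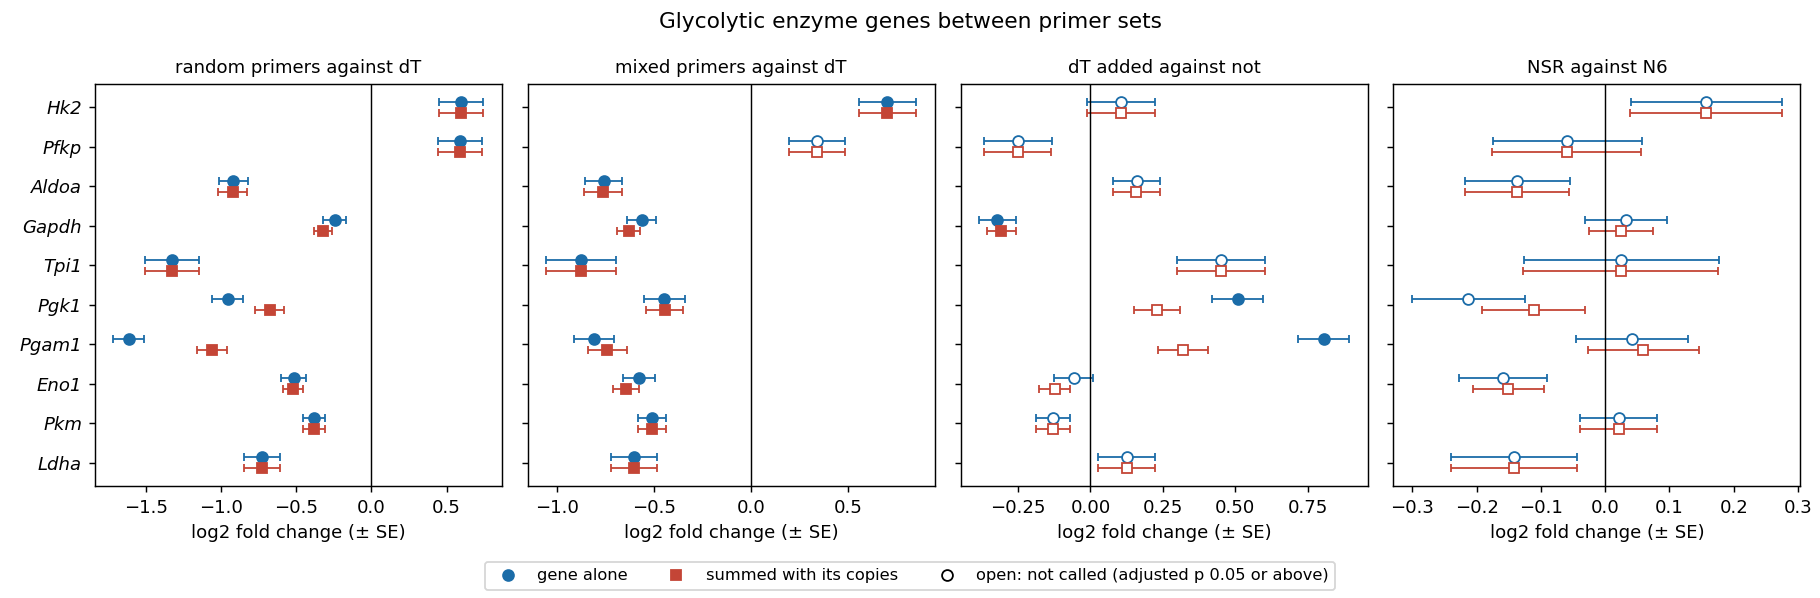
Log2 fold change with its SE (horizontal axis, 1 scale per panel) of the 10 genes in the 4 comparisons between primer sets. Circles are the gene alone, squares the gene with its copies, and open symbols were not called. Random primers against dT has 8 genes left of 0, and with copies no gene is called higher when dT was added.

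When dT was mixed with random primers, the levels stayed below those of dT alone for the same 8 genes that were lower with random primers alone. This comparison shares its dT libraries with the previous one. Against dT, the mean of N6dT and NSRdT was lower for 8 of the 10 genes and higher for Hk2, all called by edgeR, while 10.2% of all genes tested were called (6.36% higher, 3.81% lower). Scaled to library totals alone, 4.44% of genes were called higher and 19.7% lower, and the median over all genes went from 0.08 to -0.61.

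Tpi1 was 1.84-fold lower (log2 difference -0.88, SE 0.18, adjusted p = 0.0048 by edgeR), Pgam1 1.76-fold (-0.81, SE 0.10, adjusted p = 6.72e-05) and Aldoa 1.7-fold (-0.76, SE 0.10, adjusted p = 6.19e-05). Gapdh was 1.48-fold lower here (-0.57, SE 0.08, adjusted p = 0.000117 by edgeR), with N6dT libraries at 1048, 982 and 1119.9 CPM and NSRdT libraries at 1015, 1221 and 1109. All 6 were below the lowest dT library. Ldha, Eno1, Pkm and Pgk1 were lower by log2 differences of -0.60, -0.58, -0.51 and -0.45, with adjusted p from 0.00019 to 0.0119 by edgeR.

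Hk2 was 1.63-fold higher (0.70, SE 0.15, adjusted p = 0.0059 by edgeR), with 220.0, 222 and 283 CPM in N6dT and 249, 206 and 239 in NSRdT. By library totals alone its difference was 0.01 (adjusted p = 0.982, over all alternatives 7.03e-05 to 0.982). Relative to the median of all genes it was 0.62, a value that a change of scaling hardly moves and that adds no support. Pfkp did not pass the test (0.34, SE 0.14, adjusted p = 0.15 by edgeR). Its NSRdT libraries, at 174, 252 and 272 CPM, overlapped the dT libraries.

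The next comparison asked what the addition of dT to random primers changed. Adding dT gave higher Pgam1 and Pgk1 and lower Gapdh, and the other 7 genes did not pass the test. These 3 calls stood against 2.17% of all genes called (1.80% higher, 0.376% lower). Scaled to library totals alone, 3.27% were called higher and 0.191% lower, 5 members were called higher and none lower, and Gapdh was not called (-0.08, adjusted p = 0.741, over all alternatives 0.000949 to 0.741). With that scaling the median over all genes went from -0.02 to 0.22. Relative to that median Gapdh stood at -0.31 by TMM and -0.30 by totals, values that had to be close and add no support.

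Pgam1 rose from 207, 208 and 182 CPM with N6 to 352, 312 and 299 with N6dT, and from 186, 187 and 196 with NSR to 350.0, 409.8 and 311 with NSRdT. Its log2 difference was 0.81 (SE 0.09, adjusted p = 2.14e-05 by edgeR), and no library with dT overlapped one without. Pgk1 rose from 202 to 276 CPM without dT to 285 to 392 with it (0.51, SE 0.09, adjusted p = 0.00256 by edgeR). Both differences were smaller when copies were counted in. With their copies Pgam1 differed by 0.32 (SE 0.09, adjusted p = 0.0785, over all alternatives 5.18e-14 to 0.0785) and Pgk1 by 0.23 (SE 0.08, adjusted p = 0.264, over all alternatives 1.32e-05 to 0.264), and neither was called.

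Gapdh was 1.25-fold lower when dT was added (-0.32, SE 0.06, adjusted p = 0.00882 by edgeR), and 1.24-fold lower with its copies (-0.31, SE 0.05, adjusted p = 0.00125). All 6 libraries with dT lay below all 6 without. Tpi1 had a positive difference that did not pass (0.45, SE 0.15, adjusted p = 0.236 by edgeR), with N6dT replicate 1 at 134 CPM above the other two N6dT libraries, at 86.0 and 74.5. The remaining 6 genes differed by -0.25 (Pfkp) to 0.16 (Aldoa).

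NSR primers were compared with N6 to see whether primers that avoid rRNA change these mRNAs. No member was called in edgeR (NSR and NSRdT against N6 and N6dT), and 0 were called by DESeq2. At an unadjusted p under 0.05 there were 2, Pgk1 and Eno1, and 848 of all 15682 genes. Of all genes tested 0.172% were called, 0.0446% higher and 0.128% lower. Differences ran from -0.21 (Pgk1, SE 0.09) to 0.16 (Hk2, SE 0.12), and for none of the 10 did the 2 sides separate. Library totals alone gave 4 higher calls (Hk2, Gapdh, Pgam1 and Pkm) and took the median over all genes from 0.01 to 0.42, with 3.37% of genes called higher and 0.0893% lower. Whether the difference between NSR and N6 depended on dT was tested by the interaction term of the same edgeR model. No member was called (adjusted p = 0.9999 for each), and 10 of all 15682 genes were. The member with the smallest unadjusted p was Hk2, with a log2 interaction of -0.46 (SE 0.24), so a dependence of that size was not excluded.

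Of the copies, Eno1b was called lower with NSR (-0.68, SE 0.10, adjusted p = 0.0054 by edgeR). It stood at 303, 231 and 313 CPM in the N6 libraries and at 123, 114 and 112 in the NSR libraries, but at 248, 209 and 209 with N6dT and 239, 201 and 194 with NSRdT. The libraries were thus apart without dT and overlapped with it. The Eno1 pseudogene Gm4735 was at 135, 179 and 170.5 CPM with NSR and at 43.7, 44.8 and 0.000139 with N6, and at 28.1 ± 10.8 with N6dT and 22.0 ± 19.3 with NSRdT. Summed with both copies, Eno1 differed by -0.15 (SE 0.05, adjusted p = 0.792 by edgeR).

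Each primer set was also set against bulk, in 5 fits of 6 libraries that share the same bulk libraries. Tpi1, Pgam1 and Pgk1 were lower than bulk with either random primer alone, and with dT Eno1, Pgam1 and Aldoa were higher and Hk2 and Pfkp lower. The mixed sets had the fewest calls. With N6, 4 members were called by edgeR, Eno1 higher and Tpi1, Pgam1 and Pgk1 lower, against 7.21% of all genes tested (3.31% higher, 3.9% lower). With NSR 4 were lower, Tpi1, Pgam1, Pgk1 and Aldoa, against 8.67% of genes (4.01% higher, 4.65% lower). With dT, Eno1, Pgam1 and Aldoa were higher and Hk2 and Pfkp lower, against 18.8% of genes (6.9% higher, 11.9% lower). With N6dT none was called, against 4.79% of genes (2.7% higher, 2.09% lower). With NSRdT Aldoa and Tpi1 were lower, against 5.28% (2.69% higher, 2.58% lower).

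By library totals alone all 10 members were called lower than bulk with N6, NSR, N6dT and NSRdT, and the median of all genes moved to -1.39, -1.04, -1.23 and -0.75 from values between -0.04 and -0.03. Under that scaling the share of genes called lower was 56.5% with N6, 38.6% with NSR, 52.4% with N6dT and 24.2% with NSRdT, and the share called higher 0.927%, 1.17%, 0.847% and 1.15%. For dT the median moved from -0.19 to -0.45, with 3.91% of genes higher and 14% lower. Pgam1 and Eno1 were still called higher and Hk2 and Pfkp lower, and Aldoa was not called (0.12, adjusted p = 0.434).

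Tpi1 had the largest deficit with random primers. It stood at 141, 172 and 136 CPM in bulk and was lower with N6 by a log2 difference of -1.08 (SE 0.14, adjusted p = 0.00478 by edgeR) and with NSR by -1.03 (SE 0.16, adjusted p = 0.00978). Without bulk replicate 2, its highest bulk library, the values were -0.97 and -0.93, both called (adjusted p = 0.021 and 0.0466). With dT it did not differ beyond the spread (0.28, SE 0.16, adjusted p = 0.301).

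Pgam1 stood at 364, 334 and 339 CPM in bulk. It was lower with N6 (-0.78, SE 0.10, adjusted p = 0.004 by edgeR) and NSR (-0.86, SE 0.09, adjusted p = 0.00161) and higher with dT (0.80, SE 0.08, adjusted p = 0.00325), and these hardly moved without bulk replicate 2 (-0.81, -0.89 and 0.78, all called). With its copies added, the deficits were -0.26 (SE 0.11, adjusted p = 0.256) and -0.27 (SE 0.08, adjusted p = 0.108), neither called. The excess with dT was then 0.81. Over all alternatives the adjusted p ran from 1.17e-10 to 0.256 with N6 and from 3.43e-15 to 0.108 with NSR. With the mixed sets the gene alone was at -0.07 (N6dT) and 0.06 (NSRdT), not called.

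Pgk1 was lower with N6 (-0.62, SE 0.10, adjusted p = 0.0131 by edgeR) and NSR (-0.77, SE 0.12, adjusted p = 0.0105), and with copies by -0.49 and -0.45, both called. Those 2 calls held without bulk replicate 2 but not without bulk replicate 1 or 3 (adjusted p from 0.0692 to 0.103). Eno1 was higher with dT (0.87, SE 0.08, adjusted p = 0.00206) and N6 (0.49, SE 0.09, adjusted p = 0.0226). The N6 call ended with copies (0.17, adjusted p = 0.221) and without any 1 bulk library (0.102 to 0.139), with a range over all alternatives of 3.26e-05 to 0.407, and the dT difference fell to 0.57 with copies and stayed called (adjusted p = 0.00705).

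Aldoa stood at 528, 496 and 517 CPM in bulk, above all RT-RamDA libraries with random primers and below all dT libraries. It was lower with NSR (-0.65, SE 0.09, adjusted p = 0.00595 by edgeR) and NSRdT (-0.42, SE 0.07, adjusted p = 0.0259) and higher with dT (0.38, SE 0.08, adjusted p = 0.0248). The call with NSR ended without bulk replicate 1 (0.0523) or 3 (0.0587), and those with NSRdT (0.0702 to 0.186) and dT (0.0913 to 0.126) without any 1 bulk library. The call of Tpi1 with NSRdT (-0.60, SE 0.13, adjusted p = 0.05 when rounded and just under the threshold) ended without NSRdT replicate 1 or 2 or any 1 bulk library. It also ended with 6 of 9 other settings, and over all alternatives the adjusted p ran from 0.00123 to 0.179.

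Hk2 stood at 302, 251 and 285 CPM in bulk, more than in any dT library. It was lower with dT by -0.92 (SE 0.10, adjusted p = 0.0037 by edgeR) and by -0.99 without bulk replicate 2 (adjusted p = 0.0142), and was not called without bulk replicate 3 (0.0522). Pfkp was lower with dT by -0.63 (SE 0.14, adjusted p = 0.0272), by -0.73 without bulk replicate 2 (adjusted p = 0.0496), and not called without bulk replicate 1 (0.119) or 3 (0.133). Its coding entries held 64.4% ± 10 of the counts with dT and 36.6% ± 1.8 in bulk, and were not tested alone. Gapdh was called against bulk with none of the 5 primer sets, with differences from -0.31 (N6dT) to 0.29 (dT). With copies it was called lower with N6dT (-0.44, SE 0.07, adjusted p = 0.0153) and NSRdT (-0.40, SE 0.07, adjusted p = 0.0251). Pkm and Ldha were called in none of the 5 fits.

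For N6dT, where edgeR called none, DESeq2 called 3 members, Eno1 higher and Aldoa and Pkm lower, and 5 members had an unadjusted p under 0.05 in edgeR, as had 2859 of all 15234 genes. With bulk replicate 2 left out no member was called with N6dT, and Pkm was the only one called with NSRdT (-0.42, adjusted p = 0.048).

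**Figure D4:**
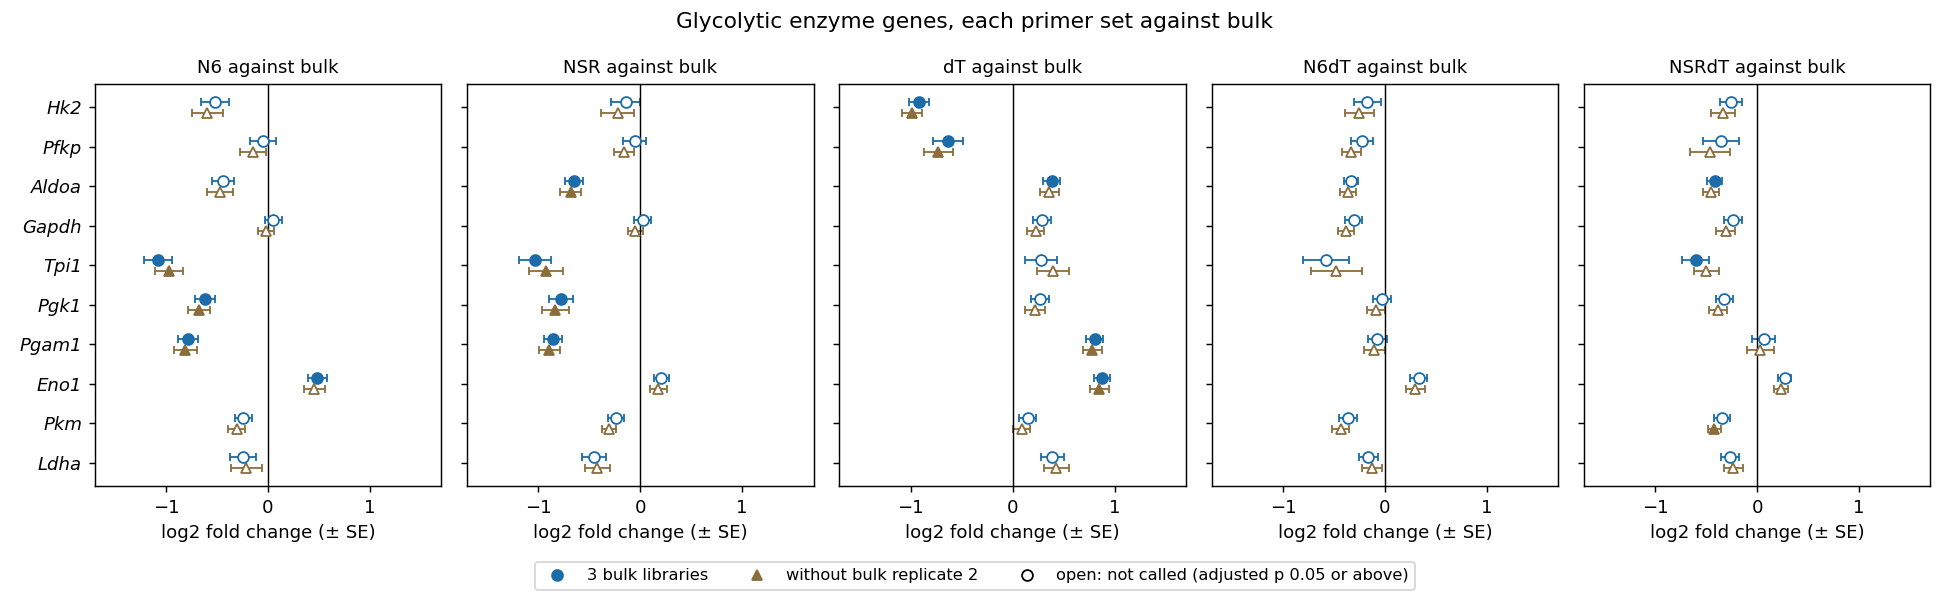
Log2 fold change with its SE (horizontal axis, the same in all panels) of the 10 genes in each primer set against bulk. Circles use 3 bulk libraries, triangles leave out bulk replicate 2, and open symbols were not called. Pgam1 lies left of 0 with N6 and NSR, right of 0 with dT and near 0 with N6dT and NSRdT.

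The transcripts that make up each gene's counts also differed between primer sets. These shares are estimates and are given as a description, with no test. Pfkp changed most. Pfkp-004, an entry of 4663 bases annotated as retaining an intron, made up 43.0%, 40.5% and 51.6% of the counts of Pfkp in the N6 libraries and 42.9%, 44.0% and 45.3% in bulk, but 0%, 1.88% and 0.222% with dT. It held 34.6% to 49.6% with NSR, 35.1% to 43.6% with N6dT and 29.0% to 41.4% with NSRdT, so the dT libraries were apart from all others. The protein-coding Pfkp-005, of 2679 bases, made up 44.6% ± 2.6 with dT and 13.8% ± 3.7 with N6, 16.5% ± 9.9 with NSR and 24.0% ± 2.2 in bulk. All entries of Pfkp annotated as retaining an intron held 32.6% ± 9.3 with dT, 59.7% ± 2.1 in bulk, 66.5% ± 15 with NSR and 68.1% ± 6.3 with N6.

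Tpi1 and Ldha showed short entries with random primers alone. Tpi1-004, an 802-base coding entry, held 22.9%, 17.1% and 26.8% of Tpi1 with N6 and 22.2%, 31% and 29.2% with NSR, 0 in all 3 dT libraries and at most 5.12% in the other groups. Tpi1-003, a 446-base entry with a retained intron, held 11.2% ± 3.9 with N6 and 15.6% ± 2.0 with NSR, and at most 4.25% in any other library. Ldha-008, a 645-base entry with a retained intron, held 11.4% ± 1.2 with N6 and 6.59% ± 1.8 with NSR and at most 0.665% elsewhere. For each of these 3 entries the 6 RT-RamDA libraries with N6 or NSR alone were above all 12 others.

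Pgk1-003, annotated for nonsense-mediated decay, held 52.4%, 28.4% and 0.00187% in the N6 libraries and 0 with dT. The range within the N6 replicates was wider than any difference between group means. Eno1-006, a 773-base coding entry, held 22.9% ± 6.0 with NSR, 12.2% ± 1.6 with N6, 12.0% ± 1.1 in bulk and 1.07% ± 0.94 with dT. Gapdh-001, the full-length coding entry, held 89.4% to 94.1% in the RT-RamDA groups and 71.4% ± 5.4 in bulk, where Gapdh-016 held 13.9% ± 0.84 and Gapdh-003 9.94% ± 4.0. Hk2-001 held at least 96.0% of Hk2 in every library.

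Pyruvate kinase is spliced to hold 1 of 2 alternative exons, and the exon of the M2 form is the one known for proliferating and pluripotent cells. The table has 1 entry for each form. The 2 exons are 167 bases each and differ at 64 of them (61.7% identity), and are printed because these bases set the forms apart. The entries also differ outside the exon, which ends 830 bases before the 3′ end of Pkm-201 and 644 before that of Pkm-202 in GENCODE vM21, so reads from their ends can be given to 1 form too. The M2 exon of Pkm-201 is at chr9:59675568-59675734 and the M1 exon of Pkm-202 at chr9:59675029-59675195 (mm10, plus strand, GENCODE vM21), and capitals mark the bases that differ.
Pkm-201 exon: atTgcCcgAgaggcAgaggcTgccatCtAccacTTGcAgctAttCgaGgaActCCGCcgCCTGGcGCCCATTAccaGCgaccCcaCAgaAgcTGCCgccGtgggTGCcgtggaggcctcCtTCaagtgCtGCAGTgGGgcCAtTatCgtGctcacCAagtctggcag
Pkm-202 exon: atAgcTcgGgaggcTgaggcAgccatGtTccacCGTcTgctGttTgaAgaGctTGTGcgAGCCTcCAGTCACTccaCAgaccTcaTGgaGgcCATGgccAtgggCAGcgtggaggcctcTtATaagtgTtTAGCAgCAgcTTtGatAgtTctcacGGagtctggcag

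Pkm-201 held most of the counts of Pkm in every library. Its share was highest with dT, at 97.5% ± 1.2, then 96.0% ± 0.32 in bulk, 95.6% ± 2.1 with NSRdT, 94.7% ± 3.6 with N6dT, 94.1% ± 3.3 with N6 and 93.1% ± 2.2 with NSR. Pkm-202 held from 2.48% ± 1.2 with dT to 6.92% ± 2.2 with NSR. The dT libraries, at 3.34%, 1.15% and 2.95%, were below all bulk libraries (3.90%, 3.77% and 4.38%) and all NSR libraries (4.34% or more), and every other pair of groups overlapped. The muscle isozymes Pfkm, Pgam2, Eno3 and the brain isozyme Aldoc summed to between 6.79 and 31.4 CPM, far under the 10 genes.

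**Figure D5:**
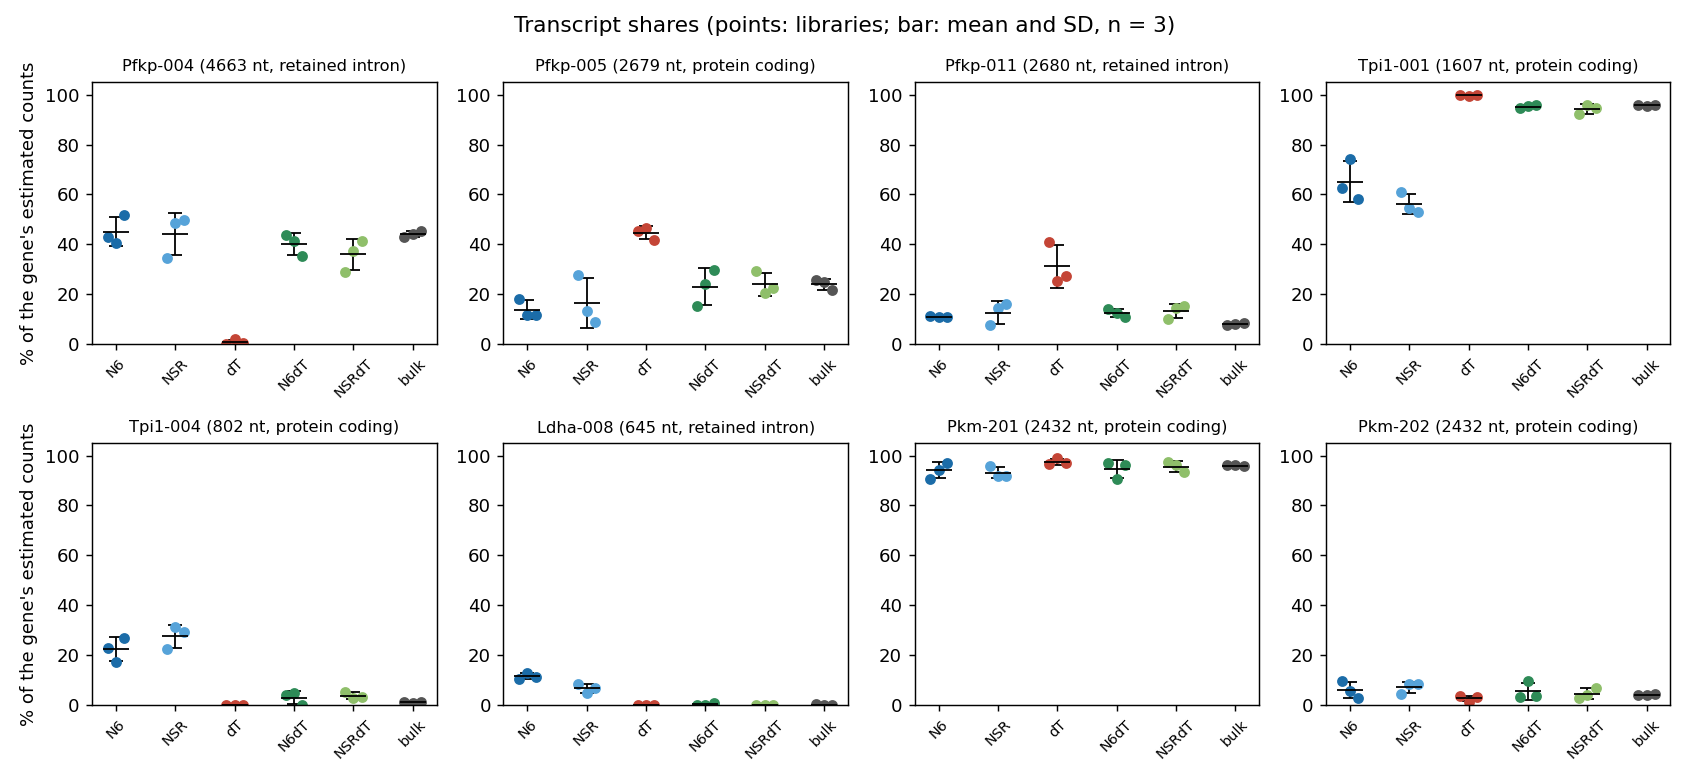
Share of a gene's estimated counts given to 1 transcript entry (vertical axis, percent) in the 18 libraries, for 8 entries. Points are libraries and bars the mean and SD of 3. Pfkp-004 is at 1.88% or less with dT and at 29.0% or more in every other library, and Pkm-201 is at 90.6% or more throughout.

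In the 5 RT-RamDA groups the median spread of these genes was below that of other abundant genes, and in bulk it was above it. The median coefficient of variation of the 10 genes was 6.03% to 9.12% over the 5 RT-RamDA groups and 7.22% in bulk. For the genes of at least 100 CPM in bulk (942 to 950 in each group) it was 11% to 15.1% and 6.37%. That set includes the 10 genes and was not matched to them in level, so the difference is not read as a trait of theirs. The widest members were Tpi1 with N6dT, at 31.9%, and Pfkp with NSRdT, at 22.2%, and the narrowest was Eno1 with NSRdT, at 1.73%.

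Other genes of sugar metabolism were read from a list of 43 (other isozymes, glucose and lactate transporters, regulators, pyruvate dehydrogenase, gluconeogenesis and the pentose phosphate pathway). With random primers against dT, 32 were tested, of which 4 were lower and 1 higher, against 17.1% of all genes called. Ldhb, the other lactate dehydrogenase subunit, differed by -1.12 (SE 0.15, adjusted p = 6.88e-05 by edgeR), Dlat by -0.96, Taldo1 (transaldolase) by -0.83 and Pdhb (pyruvate dehydrogenase) by -0.70, and Hk1, named after its value was seen, by 1.92 (SE 0.49, adjusted p = 0.0137). The median of the 32 was -0.32. With the mixed primers against dT 4 were lower (Ldhb, Taldo1, Pdhb and Tkt, transketolase) and none higher, against 10.2% of all genes.

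No gene of that list was called when dT was added or between NSR and N6. Against bulk with dT, 6 of 34 were higher (Ldhb, Taldo1, Dlat, Dld, Pdhb and Tkt, by 0.44 to 1.04) and 2 lower, the glucose transporter Slc2a3 by -0.40 (SE 0.09, adjusted p = 0.0212 by edgeR) and Gapdhs, against 18.8% of all genes called. These counts do not set the list apart. With N6, Pfkfb1 was the only one called against bulk, lower, and none of the 34 was called with NSR, N6dT or NSRdT. Gapdhs and Pfkfb1 are little-expressed genes named after their values were seen.

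Of 3222 protein-coding genes searched, the 5 whose log2 levels over the 18 libraries were most like the mean of the 10 were Rpsa (Pearson's r = 0.98), Rps3a1 (0.96), Hspa8 (0.95), Gm8730 (0.95) and Rpl8 (0.95). Rpsa, a ribosomal protein, stood at 1219 ± 82.4 CPM with dT, 973 ± 45.8 in bulk and 523 ± 54.6 with N6. The 18 points share groups and library preparation, and the values are given as a description.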

How the data were processed

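RNA-seq was analysed in 18 libraries of mouse ES cell RNA, 3 for each of 6 groups taken from the labels. The deposited values are estimated counts per transcript, not whole numbers, which the authors made from reads demultiplexed with bcl2fastq 2.16.0.10, with mm10 as the build, per the submitters' processing notes. Aligner, quantifier and strand setting: not given in the sources used here. Counts were summed per gene and rounded, and 92 ERCC spike-in entries were left out. The series text speaks of 12 RT-RamDA samples and 15 were listed.

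Tests were edgeR 4.0.16 quasi-likelihood tests (R 4.3.3, TMM, filterByExpr, Benjamini-Hochberg over all genes tested, threshold 0.05). One fit of the 15 RT-RamDA libraries gave 4 comparisons, and each primer set was fitted with bulk on its own 6 libraries. The SE was the log2 fold change divided by the square root of F. Comparisons share libraries and are not independent. CPM per kb divides each transcript by its own length. Copies were genes named after a member and, added after the data were seen, genes sharing at least 50% of their 31-base words with it in GENCODE vM21, which matched 114237 of the transcript entries and all 75 member entries. Alternatives were DESeq2 1.42.0 and its size factors, library totals, no filter, a replicate block, rRNA-annotated and mitochondrial genes removed, 1 fit of all 18 libraries and each library left out. The edgeR code was also run on simulated counts for random primers against dT and for N6 against bulk. Those counts held no reads shared with copies and no change of scaling between groups, and no support is drawn from them.

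Always named were the 10 members and copies named after them. From the pathway list, genes called with a mean log2 CPM of at least 5 were named, at most 6 per comparison, and the 5 genes most like the members. The members and lists were chosen with earlier results of these data known. Figures were drawn with matplotlib 3.10.9 in Python 3.11.15.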

Additional observations from a re-analysis of the deposited data

Results flagged for a closer look

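Entries named for the ERCC spike-in RNAs, which the labels do not mention and no comparison used, held estimated counts in every library, from 28102 in N6 replicate 2 to 122973 in bulk replicate 2.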

How the results depend on the processing

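Of 90 gene-by-comparison results, 80 kept their direction and side of the threshold with DESeq2, 86 with its size factors, 85 without the filter, 87 with rRNA-annotated and mitochondrial genes removed, 80 with copies by name and 75 with copies by name or shared 31-base words, but 38 with library totals alone. With 1 library left out, 662 of 720 did. In 1 fit of all 18 libraries 46 of 50 results against bulk did. The causes were not tested.

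Numbers of members called that moved with library totals alone were 5 with dT added, 4 for NSR against N6, and 10 against bulk for each of N6, NSR, N6dT and NSRdT. With copies by shared words 1 member was called with dT added, 2 for N6 against bulk (2 also by name) and 1 for N6dT against bulk. For N6dT against bulk 1 was called with rRNA-annotated and mitochondrial genes removed, 3 with DESeq2 and 1 in the fit of 18 libraries. For NSRdT against bulk 1 was called without the filter and 4 with DESeq2. The replicate block gave 3 calls for dT against bulk and 0 for NSRdT against bulk. Same-numbered libraries were not pairs by the labels, their residual correlations ran from -0.037 to 0.034 over 7305 genes, and 5 of 18 libraries correlated best with their own number. The block changed 5 of the 90 results.

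Leaving out 1 library gave 8 to 10 calls for random primers against dT, 9 for mixed primers, 3 with dT added and 0 for NSR against N6. Against bulk it gave 2 to 6 with N6, 2 to 5 with NSR, 2 to 7 with dT, 0 to 2 with N6dT and 0 to 2 with NSRdT. Without bulk replicate 1 or 3 the calls were 2 with N6 and 2 with NSR, and with dT 3 and 2. With N6dT there were 2 without its replicate 1 and 1 without its replicate 3. With NSRdT there was 1 without its replicate 1, its replicate 2 or bulk replicate 2, and 0 without bulk replicate 1 or 3. By library totals the 10 genes summed to 9016 CPM with dT and 8732 in bulk, and to 3033 with N6, 3707 with NSR, 3333 with N6dT and 4569 with NSRdT.

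Signs turned with library totals alone for Hk2 (-0.33) and Pfkp (-0.34) in random primers against dT, Pfkp in mixed primers (-0.35), and Eno1 (0.18) and Pkm (0.11) with dT added. They also turned in NSR against N6 for Pfkp (0.35), Aldoa (0.27), Pgk1 (0.20), Eno1 (0.25) and Ldha (0.27). Against bulk they turned for Gapdh with N6 (-1.32) and NSR (-0.98), Eno1 with N6 (-0.88), NSR (-0.80), N6dT (-0.87) and NSRdT (-0.45), Pkm with dT (-0.11) and Pgam1 with NSRdT (-0.65). With copies by name Eno1 turned with dT added (0.0029) and against bulk with NSR (-0.37), N6dT (-0.074) and NSRdT (-0.14), and Pgam1 with N6dT (0.011). With copies by shared words Gapdh turned with N6 (-0.11) and NSR (-0.13), Eno1 with NSR (-0.079), N6dT (-0.029) and NSRdT (-0.11), and Pgam1 with N6dT (0.011). Without the filter Gapdh turned with N6 (-0.070) and NSR (-0.087) and Pgam1 with NSRdT (-0.029), and with DESeq2's size factors Pgk1 with N6dT (0.00064). With 1 library left out, signs turned in some settings of NSR against N6 for Pfkp (-0.12 to 0.026), Tpi1 (-0.053 to 0.17), Gapdh (-0.0017 to 0.064), Pgam1 (-0.012 to 0.089) and Pkm (-0.0029 to 0.049). Against bulk they turned for Pfkp with N6 (-0.16 to 0.012), Gapdh with N6 (-0.018 to 0.083) and NSR (-0.047 to 0.053) and Pgam1 with NSRdT (-0.054 to 0.14).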
